A study of Mus musculus with 12 samples.

Results

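The D-type cyclin genes *Ccnd1*, *Ccnd2* and *Ccnd3*, the genes of their kinase partners *Cdk4* and *Cdk6*, and *Rb1*, whose product these kinases phosphorylate, were followed in murine hepatocellular carcinoma (HCC) cells that differ in AKT and in *Dusp4* silencing. The 6 genes were taken by name from the 770 genes of the panel, and all 6 were measured above its floor in each of the 12 samples. *Ccnd2* separated the lines most clearly among them: its level was 4.37-fold lower in AKT Cre/NRAS than in AKT/NRAS cells under the control pool and 3.34-fold lower under *Dusp4* siRNA. With *Dusp4* siRNA, 5 of the 6 genes rose in AKT Cre/NRAS cells and 1 rose in AKT/NRAS cells, beside 40.6% and 5.44% of all genes tested that rose there, and these counts changed with the scaling of the samples.

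D-type cyclins are made when growth factor signals reach a cell, and they bind and activate CDK4 and CDK6 in the G1 phase. The active complexes phosphorylate the retinoblastoma protein RB1, which then releases E2F transcription factors, and E2F target genes carry the cell into S phase. RAS signalling through ERK raises transcription of *Ccnd1*, AKT lowers the turnover of cyclin D1 by restraining its kinase GSK3B, INK4 proteins block CDK4 and CDK6, and cyclin D1 is known in liver as a driver of hepatocyte division during regeneration and in HCC.

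The samples formed 4 groups of 3 biological replicates each, namely AKT Cre/NRAS cells with *Dusp4* siRNA, AKT Cre/NRAS cells with the non-targeting control pool (SCR), AKT/NRAS cells with *Dusp4* siRNA and AKT/NRAS cells with SCR. AKT/NRAS cells were grown from a mouse HCC that arose after hydrodynamic injection of plasmids for activated NRAS and for a myristoylated AKT between loxP sites, and AKT Cre/NRAS cells are their derivative after Cre had removed AKT, so all 4 groups carried activated NRAS and only AKT differed by design. The pool was given to each line in a pair of rounds 48 h apart with RNA taken 24 h after the second, and 100 ng of total RNA per sample was run on the NanoString Mouse PanCancer Pathways panel, which counts fluorescent barcodes without amplification. Every comparison of the lines rests on 1 parental line and 1 derivative, and whether the derivative is 1 clone, and the age of the mouse, are not given in the sources used here.

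Values are normalized counts, that is, the deposited signal (a barcode count times a factor from the positive controls, with a floor at 20) multiplied by a factor per sample from 15 reference genes and raised to a common floor of 27.1. The recovered barcode counts summed to between 804650 and 1021756 in AKT Cre/NRAS siRNA samples, 942400 and 1081646 in AKT Cre/NRAS SCR samples, 641790 and 868961 in AKT/NRAS siRNA samples, and 646335 and 801287 in AKT/NRAS SCR samples. *Dusp4*, the targeted gene, which encodes a nuclear phosphatase of MAP kinases, had 4126, 4174 and 3769 normalized counts with siRNA and 6343, 5843 and 4483 with SCR in AKT Cre/NRAS cells. In AKT/NRAS cells it had 350, 389 and 371 with siRNA and 1273, 1226 and 1186 with SCR, so the groups did not overlap in either line. The silencing was smaller in AKT Cre/NRAS cells, with a log2 change of -0.45 (limma adjusted p = 0.0178). That change was not called without siRNA replicate 1, siRNA replicate 3 or SCR replicate 2 (limma adjusted p up to 0.0677). It was called under 5 of 8 scalings and was 0.00098 with the 5 reference genes ranked first by geNorm. In AKT/NRAS cells the log2 change was -1.73 (limma adjusted p = 1.13e-06), and it was called under all 8. *Akt1* averaged 555 ± 28.8 and 388 ± 47.9 in AKT Cre/NRAS siRNA and SCR cells, against 18331 ± 208 and 19831 ± 507 in AKT/NRAS siRNA and SCR cells (SD, n = 3 each). Of the 3 biliary or progenitor markers on the panel, *Spp1* averaged 110575 and 141349 in AKT Cre/NRAS siRNA and SCR cells against 18598 and 15249 in AKT/NRAS siRNA and SCR cells, *Sox9* averaged 564 and 369 against 359 and 426, and *Prom1* had 37.9 to 72.5 in AKT Cre/NRAS samples against the floor in all AKT/NRAS samples. With siRNA in AKT Cre/NRAS cells *Sox9* rose (log2 change 0.62, limma adjusted p = 0.0109) and *Spp1* had -0.35 (limma adjusted p = 0.126). Among markers of other cells, *Kdr*, *Col3a1* and *Pdgfrb* stood at the floor in all samples and *Col1a1* had group means of 30.6 to 36.8. The 3 AKT Cre/NRAS SCR samples stood apart in the log2 ratio of *Rpl19* to *Polr2a*, which was 4.72, 4.92 and 5.03 in AKT Cre/NRAS siRNA samples, 5.48, 6.36 and 6.88 in AKT Cre/NRAS SCR samples and 3.81 to 3.92 in the AKT/NRAS samples.

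The first comparison asked how *Dusp4* siRNA changed the 6 genes in cells driven by NRAS alone. In AKT Cre/NRAS cells, *Ccnd1*, *Ccnd2*, *Ccnd3*, *Cdk6* and *Rb1* rose by 1.24- to 1.63-fold, and *Cdk4* did not pass the test. The 5 called genes compare with 231 of 503 genes tested (45.9%) that passed in either direction, 204 of them upward (40.6%) and 27 downward (5.37%), so a rise was common across the panel. For the same 5 genes every siRNA sample lay above every SCR sample, beside 60% of all genes whose groups did not overlap (50.7% higher and 9.34% lower with siRNA). The median log2 change was 0.47 over the 6 genes and 0.23 over all genes tested. RNA of whole cultures was measured, in which fewer cells of a kind and less RNA per cell cannot be told apart.

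*Ccnd1* encodes cyclin D1, the D-type cyclin most often raised in liver cancer. It had 9188, 9186 and 9459 normalized counts with *Dusp4* siRNA, against 8205, 7110 and 6329 with SCR. The siRNA samples lay close together and above every SCR sample, and the SCR samples had a coefficient of variation of 13.1% against 1.69% with siRNA. The log2 change was 0.37 ± 0.11 (SE, limma adjusted p = 0.02, n = 3), and the call was lost when any 1 siRNA replicate or SCR replicate 2 was left out, with log2 changes of 0.28 to 0.47 and an adjusted p of up to 0.0718.

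*Ccnd2* encodes cyclin D2, which serves the same kinases and is the main D-type cyclin of several other tissues. Its siRNA samples had 4825, 4823 and 4899 normalized counts and its SCR samples 3606, 3273 and 3008. The groups did not overlap, and the siRNA samples differed among themselves by a coefficient of variation of 0.901%. The rise was 1.48-fold (log2 change 0.56 ± 0.09, SE, limma adjusted p = 0.00329), and it passed whichever replicate was left out.

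*Ccnd3* encodes cyclin D3 and gave the lowest counts of the 6 probes, so its counting error was the largest of the 6. The lowest recovered count was 97, with a 95% Poisson interval of 78.7 to 118 for counting error alone, whereas the lowest of the other 5 genes were 457 to 4839. It had 232, 230 and 249 normalized counts with siRNA and 176, 159 and 108 with SCR, again without overlap. SCR replicate 3 was the lowest, and the SCR coefficient of variation was 23.9%. The rise was 1.63-fold (log2 change 0.71 ± 0.17, SE, limma adjusted p = 0.00887) and passed whichever replicate was left out.

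Of the 2 kinase genes, *Cdk6* passed and *Cdk4* did not. *Cdk6* had 825, 828 and 844 normalized counts with siRNA and 599, 572 and 509 with SCR, a 1.49-fold rise (log2 change 0.57 ± 0.09, SE, limma adjusted p = 0.00329) that passed whichever replicate was left out. *Cdk4* had 4585, 4849 and 5028 with siRNA and 4909, 5507 and 5583 with SCR. These groups overlapped at the highest siRNA sample and the lowest SCR sample, and the log2 change of -0.14 had a 95% interval of -0.34 to 0.05 (limma adjusted p = 0.209). Without SCR replicate 1 *Cdk4* passed as lower with siRNA (log2 change -0.20, limma adjusted p = 0.0409).

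*Rb1*, the gene of the RB1 protein that holds back E2F, had 742, 750 and 637 normalized counts with siRNA and 632, 563 and 523 with SCR. The lowest siRNA sample lay just above the highest SCR sample. The rise was 1.24-fold (log2 change 0.31 ± 0.11, SE, limma adjusted p = 0.0371), and the call was lost without siRNA replicate 1, siRNA replicate 2 or SCR replicate 2, with an adjusted p of up to 0.145.

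**Figure D1:**
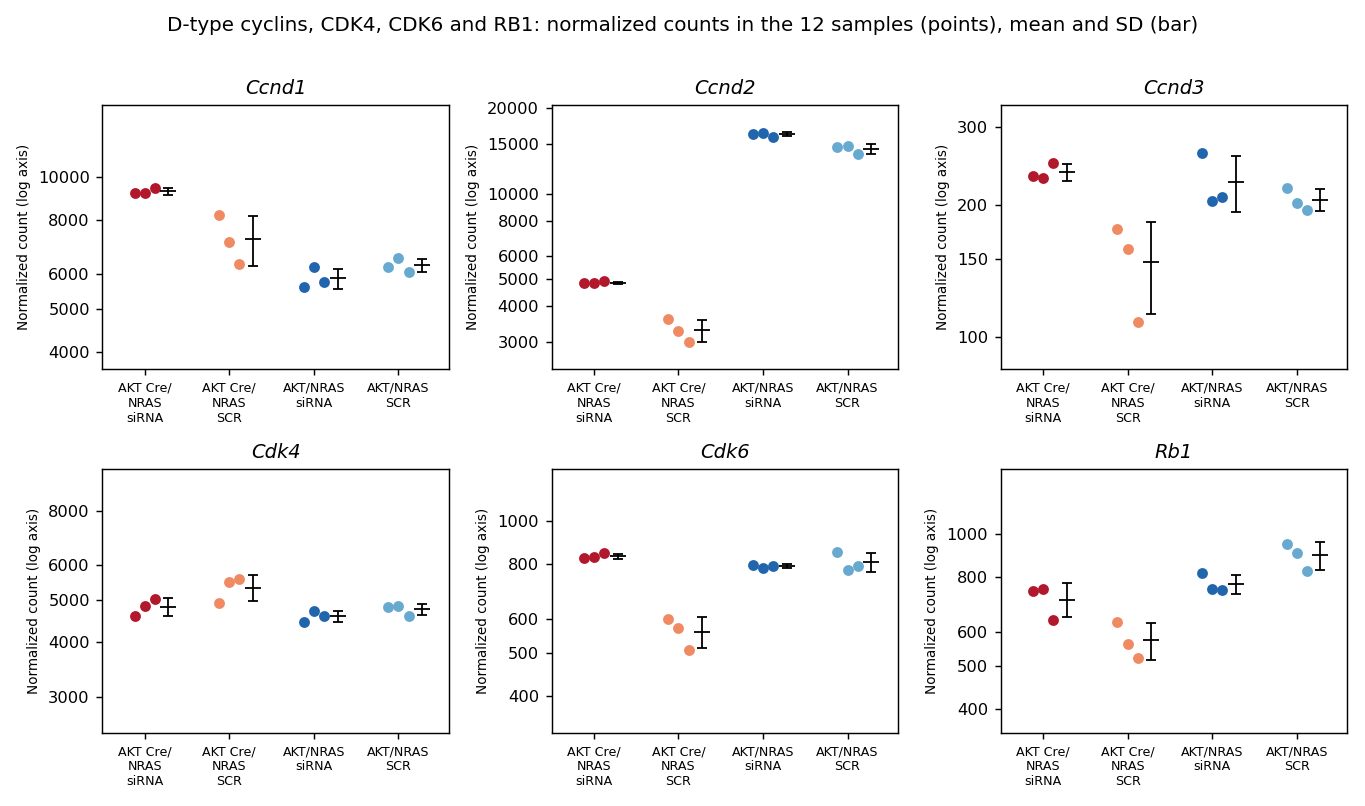
Normalized counts (vertical log axes with their own range, 1 panel per gene) of the 6 genes in AKT Cre/NRAS siRNA, AKT Cre/NRAS SCR, AKT/NRAS siRNA and AKT/NRAS SCR cells, with points for the 3 samples of a group and a bar for their mean and SD. *Ccnd2* lies between 3008 and 4899 in AKT Cre/NRAS samples and between 13748 and 16387 in AKT/NRAS samples, and *Cdk6* is lowest in the 3 AKT Cre/NRAS SCR samples (509 to 599).

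Which genes passed in this comparison depended on how the samples were scaled. With the 15 reference genes 204 genes of the panel rose and 27 fell. With the deposited values, which lack the reference gene step, 1 gene of the panel passed and it fell. The 10 and the 5 reference genes ranked first by geNorm gave 252 and 254 that rose and 4 and 1 that fell. With each sample re-centred on its median 32 rose and 136 fell. The quantile normalization gave 52 and 38. Of the 15 reference genes themselves, 7 passed in this comparison, 3 higher and 4 lower with siRNA. The 5 ranked first had log2 changes of -0.61 to -0.35, with 4 of them called lower. The geNorm rank follows how constant the ratios between reference genes are, so genes that shift together rank high. Over 8 scalings the median of all genes ranged from -0.10 to 0.67, and the log2 change of *Ccnd2* ranged from 0.21 to 1.01 and that of *Cdk6* from 0.22 to 1.02, each past the threshold under 7 of the 8. *Ccnd3* ranged from 0.36 to 1.16 and passed under 5, *Ccnd1* from 0.02 to 0.82 and passed under 4, and *Rb1* from -0.05 to 0.76 and passed under 3. All calls of these 5 genes were upward. *Cdk4* ranged from -0.50 to 0.31 and was called lower with siRNA under 1 of the 8 and higher under 0.

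Distances from the panel's own median were nearly the same under all scalings but the quantile normalization, which follows from multiplying each sample by 1 factor and is no sign of stability. *Ccnd3* lay 0.48 above the median on the log2 scale (0.45 to 0.52 over the 8 scalings), *Cdk6* 0.34 above (0.23 to 0.36), *Ccnd2* 0.33 above (0.30 to 0.35) and *Ccnd1* 0.14 above (0.11 to 0.44). Under the quantile normalization the order changed, with *Ccnd1* (0.44) above *Ccnd2* (0.35) and *Cdk6* (0.23). *Cdk4* lay 0.38 below the median (-0.40 to -0.24), and *Rb1* was near it at 0.08 (-0.01 to 0.09). Among the AKT Cre/NRAS SCR samples all 6 genes but *Cdk4* fell in the opposite order to the *Rpl19* to *Polr2a* ratio, and *Cdk4* followed its order, and the part of this in the siRNA comparison was not tested.

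**Figure D2:**
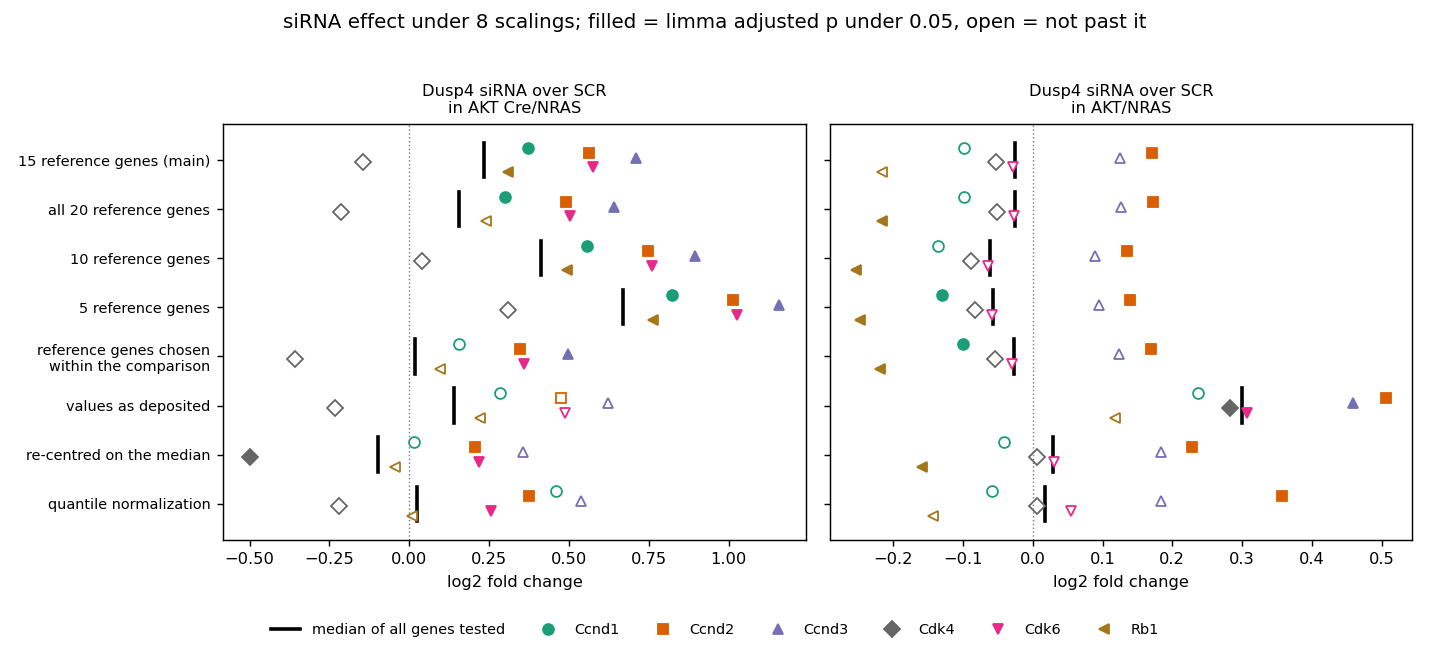
Log2 change with *Dusp4* siRNA against SCR (horizontal axes) of each gene in AKT Cre/NRAS and in AKT/NRAS cells under 8 scalings of the same samples, with filled points past a limma adjusted p of 0.05, open points not past it and a black line at the median of all genes tested (the axes of the panels differ). *Ccnd2* stays above 0 in both lines under all 8, whereas *Rb1* in AKT Cre/NRAS cells runs from -0.05 to 0.76.

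In AKT/NRAS cells, which carry both AKT and NRAS, the same siRNA was followed by 1 called gene of the 6. *Ccnd2* rose 1.13-fold, and the other 5 did not pass the test, beside 86 of 496 genes tested (17.3%) that passed, 27 of them upward (5.44%) and 59 downward (11.9%). The groups did not overlap for *Ccnd2*, higher with siRNA, and *Rb1*, lower with it, beside 34.7% of all genes (11.5% higher and 23.2% lower). The deposited values gave 287 genes that rose and 3 that fell here, the re-centred values 47 and 41, and the quantile normalization 46 and 39. The 10 and the 5 reference genes ranked first by geNorm gave 18 and 87 and 22 and 88. The median log2 change was -0.04 over the 6 genes and -0.03 over all genes tested.

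*Ccnd2* had 16263, 16387 and 15882 normalized counts with siRNA and 14641, 14739 and 13748 with SCR. The groups did not overlap, and the log2 change was 0.17 ± 0.04 (SE, limma adjusted p = 0.0176). It passed under all 8 scalings (0.13 to 0.51) but not without siRNA replicate 3 (limma adjusted p = 0.0582). *Rb1* had 815, 749 and 745 with siRNA and 952, 908 and 826 with SCR, also without overlap and lower with siRNA. Its log2 change of -0.22 ± 0.06 (SE) lay just outside the threshold (limma adjusted p = 0.0523), and it passed without siRNA replicate 1 and without SCR replicate 3. Under the scalings it ran from -0.25 to 0.12, with 5 of the 8 called lower.

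The remaining 4 genes overlapped between siRNA and SCR in AKT/NRAS cells. *Ccnd1* had 5629, 6225 and 5769 normalized counts with siRNA and 6249, 6528 and 6086 with SCR, a log2 change of -0.10 with a 95% interval of -0.20 to 0.01 (limma adjusted p = 0.191). *Ccnd3* had 263, 204 and 208 with siRNA and 218, 202 and 195 with SCR, and siRNA replicate 1 was above the rest (log2 change 0.13, 95% interval -0.13 to 0.38). *Cdk4* (4443, 4727 and 4597 with siRNA, 4817, 4852 and 4602 with SCR) and *Cdk6* (797, 782 and 790 with siRNA, 852, 774 and 790 with SCR) had log2 changes of -0.05 and -0.03. Their 95% intervals were -0.13 to 0.03 for *Cdk4* and -0.13 to 0.08 for *Cdk6* at this scaling, and the deposited values gave log2 changes of 0.28 and 0.31. Over the 8 scalings *Ccnd1* was called lower with siRNA under 2, and *Ccnd3*, *Cdk4* and *Cdk6* were each called higher under 1.

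Whether the siRNA effect differed between the lines was tested over all 12 samples as the interaction of line and siRNA. *Cdk6*, *Rb1*, *Ccnd1* and *Ccnd2* changed more upward in AKT Cre/NRAS than in AKT/NRAS cells, by log2 differences of 0.60 ± 0.09, 0.53 ± 0.13, 0.47 ± 0.12 and 0.39 ± 0.09 (SE, limma adjusted p = 0.00158, 0.00734, 0.00882 and 0.00616). All 4 passed whichever of the 12 samples was left out, and 0 of them passed with the deposited values. *Dusp4* itself was silenced less in AKT Cre/NRAS cells, with a difference of 1.28 between its log2 changes (limma adjusted p = 0.000728), and the part of this in the differences of the 4 genes was not tested. *Ccnd3* (0.58 ± 0.23, SE, limma adjusted p = 0.0546) and *Cdk4* (-0.09, 95% interval -0.28 to 0.09, limma adjusted p = 0.389) did not pass. Over the panel 238 of 525 genes (45.3%) passed, 213 upward (40.6%) and 25 downward (4.76%), with a median of 0.25, beside 0.50 for the 6 genes. With the deposited values 2 genes of the panel had an upward and 30 a downward difference, and with re-centred values 50 and 151. Quantile normalization gave 98 and 92, and the 5 reference genes ranked first by geNorm 305 and 1.

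Against the panel median the differences were 0.35 for *Cdk6*, 0.33 for *Ccnd3*, 0.28 for *Rb1*, 0.22 for *Ccnd1* and 0.14 for *Ccnd2*, whereas *Cdk4* was 0.34 below it. The differences themselves depended on the scaling, and over the 7 scalings that apply to 12 samples those of *Ccnd2* ranged from -0.03 to 0.87 with 4 called. *Cdk6* ranged from 0.18 to 1.08 and *Ccnd1* from 0.05 to 0.95 with 5 called each, and *Rb1* from 0.10 to 1.01 with 4 called.

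**Figure D3:**
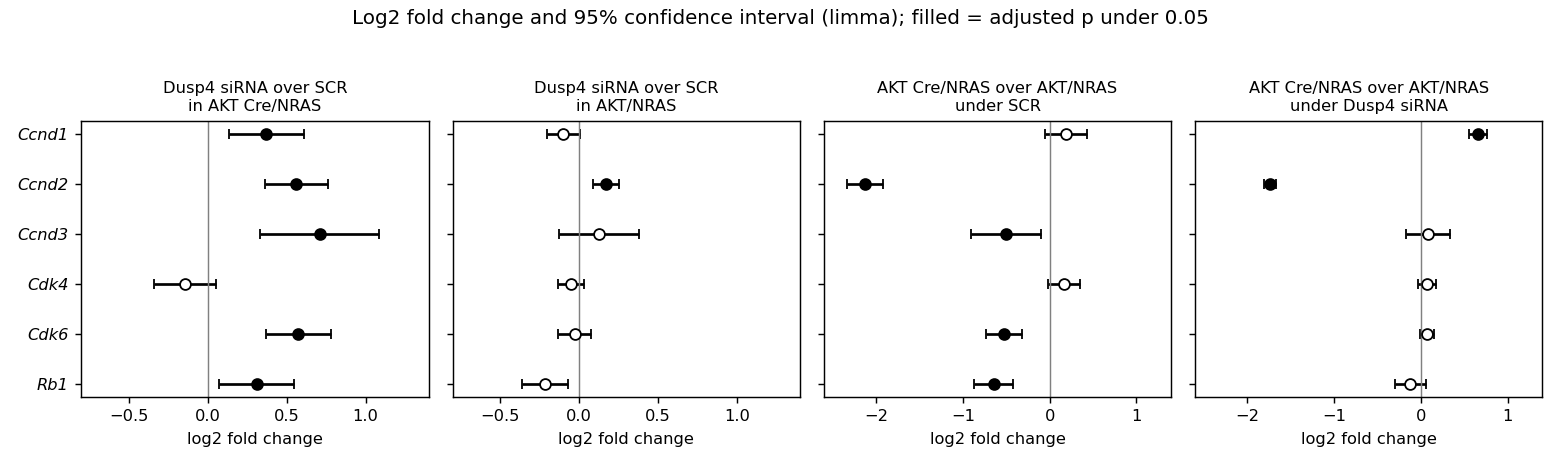
Log2 changes (horizontal axis) of the 6 genes with 95% confidence intervals from limma in the siRNA comparisons (left pair of panels) and the comparisons of the lines (right pair, on a wider axis), filled where the adjusted p is under 0.05. *Ccnd2* lies at -2.13 under SCR and -1.74 under *Dusp4* siRNA between the lines, far outside its siRNA effects of 0.56 and 0.17.

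The comparison of the lines asked how cells that had lost AKT differed from cells that kept it. Under SCR, *Ccnd2*, *Rb1*, *Cdk6* and *Ccnd3* were lower in AKT Cre/NRAS cells and neither *Ccnd1* nor *Cdk4* passed, while 396 of 515 genes (76.9%) passed, of which 149 were higher (28.9%) and 247 lower (48%). Under *Dusp4* siRNA, *Ccnd1* was higher and *Ccnd2* lower, and 389 of 522 genes (74.5%) passed, 191 higher (36.6%) and 198 lower (37.9%). The groups did not overlap for 4 of the 6 genes that were lower and for *Cdk4*, which was higher, under SCR, beside 79.8% of all genes (30.7% higher and 49.1% lower), and for *Ccnd1* and *Cdk6*, which were higher, and *Ccnd2*, which was lower, under siRNA, beside 76.6% (37.9% higher and 38.7% lower). With shares this high, a call alone does not set the 6 genes apart from the panel. With the deposited values 202 genes were higher and 99 lower under SCR, and with re-centred values 224 and 181. The 10 and the 5 reference genes ranked first by geNorm gave 97 and 281 and 69 and 256. Reference genes chosen within the comparison gave 59 and 259. The medians were -0.51 over the 6 genes and -0.22 over all genes under SCR, and 0.07 over the 6 genes under siRNA. The comparison under SCR shares its AKT Cre/NRAS SCR samples with the siRNA comparison in that line, so opposite signs of a gene in the pair are not independent observations.

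For *Ccnd2* the lines did not come near each other. The 6 AKT Cre/NRAS samples had at most 4899 normalized counts and the 6 AKT/NRAS samples at least 13748. The means were 4849 ± 43.7 and 16178 ± 263 under siRNA, and 3296 ± 300 and 14376 ± 546 under SCR, in AKT Cre/NRAS and AKT/NRAS cells (SD, n = 3 each). The log2 differences were -1.74 ± 0.03 under siRNA and -2.13 ± 0.09 under SCR (SE, limma adjusted p = 5.61e-09 and 1.69e-07). The difference passed under all 8 scalings, from -1.95 to -1.64 under siRNA and from -2.65 to -1.62 under SCR.

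*Ccnd1* ran the other way. Under siRNA it averaged 9278 ± 157 normalized counts in AKT Cre/NRAS and 5874 ± 311 in AKT/NRAS cells (SD, n = 3 each), 1.58-fold higher without overlap (log2 difference 0.66 ± 0.04, SE, limma adjusted p = 5.39e-06), and it passed under all 8 scalings (0.60 to 1.00). Under SCR it averaged 7215 ± 942 in AKT Cre/NRAS and 6287 ± 223 in AKT/NRAS cells, and the groups overlapped. That log2 difference was 0.19 with a 95% interval of -0.05 to 0.43 (limma adjusted p = 0.127). It passed without AKT Cre/NRAS SCR replicate 3 (0.28, limma adjusted p = 0.00588), and over the scalings it ran from -0.33 to 0.70, called higher under 4 of the 8 and lower under 0.

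*Ccnd3* was 1.41-fold lower in AKT Cre/NRAS than in AKT/NRAS cells under SCR (148 ± 35.3 and 205 ± 12 normalized counts, SD, n = 3 each, limma adjusted p = 0.0293). The groups did not overlap, yet the call was lost without any 1 of the AKT/NRAS SCR replicates (adjusted p up to 0.105), and the scalings gave log2 differences of -1.02 to 0.00 with 4 of the 8 called. Under siRNA it averaged 237 ± 10.6 and 225 ± 32.9, and the log2 difference of 0.08 had a 95% interval of -0.17 to 0.34.

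*Cdk6* and *Rb1* were lower in AKT Cre/NRAS cells under SCR and differed little under siRNA. *Cdk6* averaged 560 ± 45.9 in AKT Cre/NRAS SCR and 806 ± 41.0 in AKT/NRAS SCR cells, 1.44-fold lower (log2 difference -0.53 ± 0.09, SE, limma adjusted p = 0.000644). With siRNA the means were 832 ± 10.6 in AKT Cre/NRAS and 790 ± 7.59 in AKT/NRAS cells, which did not overlap but did not pass (log2 difference 0.08, 95% interval -0.0045 to 0.16, limma adjusted p = 0.0794). *Rb1* averaged 573 ± 55.1 in AKT Cre/NRAS SCR and 895 ± 64.1 in AKT/NRAS SCR cells, 1.56-fold lower (log2 difference -0.65 ± 0.10, SE, limma adjusted p = 0.000317). With siRNA it averaged 710 ± 62.8 and 770 ± 39.6 in AKT Cre/NRAS and AKT/NRAS cells, with a log2 difference of -0.12 (95% interval -0.29 to 0.06). Both SCR differences kept their direction under all 8 scalings, from -1.05 to -0.02 for *Cdk6* and from -1.17 to -0.14 for *Rb1*, and each passed under 7 of them and whichever replicate was left out.

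*Cdk4* did not pass in either comparison of the lines at the main scaling. It averaged 5333 ± 370 in AKT Cre/NRAS SCR and 4757 ± 135 in AKT/NRAS SCR cells, and 4821 ± 223 and 4589 ± 142 with siRNA in AKT Cre/NRAS and AKT/NRAS cells (SD, n = 3 each). The log2 differences were 0.16 under SCR (95% interval -0.02 to 0.35, limma adjusted p = 0.0943) and 0.07 under siRNA (95% interval -0.03 to 0.17, limma adjusted p = 0.177). The SCR groups did not overlap, and the difference passed without AKT Cre/NRAS SCR replicate 1 (0.22, limma adjusted p = 0.0117), but under 3 of the 8 scalings its sign turned, with a range of -0.36 to 0.67. *Cdk4* was called higher in AKT Cre/NRAS cells under 4 of the 8 scalings under SCR and under 2 of the 8 under siRNA, and lower under 0.

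Because *Cdk6* was called in comparisons in which *Cdk4* was not, the 300 bases around a transcript start of each (250 before, 50 after) were read from RefSeq on the mouse build GRCm38.p6, in which 3 of the 6 genes were matched. The *Cdk4* window lies at chr10:127063285-127063584 and the *Cdk6* window at chr5:3343643-3343942, both on the plus strand. The *Cdk4* start is that of the annotated gene, and the *Cdk6* start lies 2889 bases downstream of the first base of the annotated gene. Capitals mark the E-box CACGTG, a palindrome that reads the same on both strands and is a known binding motif of MYC, a factor that *Cdk4* is known to respond to.
Cdk4: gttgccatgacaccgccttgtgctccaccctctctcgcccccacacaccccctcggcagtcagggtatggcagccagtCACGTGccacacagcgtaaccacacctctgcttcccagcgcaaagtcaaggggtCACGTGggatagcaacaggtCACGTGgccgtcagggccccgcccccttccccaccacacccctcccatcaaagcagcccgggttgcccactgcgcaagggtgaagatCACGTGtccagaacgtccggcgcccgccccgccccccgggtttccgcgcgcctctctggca
Cdk6: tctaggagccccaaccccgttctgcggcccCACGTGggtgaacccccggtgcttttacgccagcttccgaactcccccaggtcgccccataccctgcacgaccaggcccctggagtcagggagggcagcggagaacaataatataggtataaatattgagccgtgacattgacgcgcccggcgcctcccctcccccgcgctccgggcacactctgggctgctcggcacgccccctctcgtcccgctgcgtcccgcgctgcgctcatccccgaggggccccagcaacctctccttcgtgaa
The *Cdk4* window holds 4 E-boxes, 172, 118, 98 and 11 bases before its start, and the *Cdk6* window holds 1, 220 bases before the start that the window is drawn around. Of 32851 windows of this length, 2349 (7.15%) hold the motif at all and 8 (0.0244%) hold it 4 times or more. The *Cdk4* window also holds 3 GC boxes (GGGCGG on either strand, in 35.7% of windows) and the *Cdk6* window 0. *Ccnd3* has 2 windows, each with 0 E-boxes and 2 GC boxes. The AP-1 motif TGANTCA (7.81% of windows), the CRE motif TGACGTCA (1.79%) and the E2F motif GCGGGAA (4.60%), read on both strands, were not in any of these 4 windows, and no matches of different motifs overlapped. These matches describe letters in the windows and no binding was measured.

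Ratios within a sample do not depend on that sample's scaling factor, and 4 ratios were compared over 4 comparisons, 16 in all. The linear ratio of *Ccnd2* to *Ccnd1* signal was 0.525, 0.525 and 0.518 in AKT Cre/NRAS siRNA samples, 0.440, 0.460 and 0.475 in AKT Cre/NRAS SCR samples, 2.89, 2.63 and 2.75 in AKT/NRAS siRNA samples, and 2.34, 2.26 and 2.26 in AKT/NRAS SCR samples. Each group stood clear of the others, with the lines 5.27-fold apart under siRNA and 4.99-fold apart under SCR, lower in AKT Cre/NRAS cells. Within each line the ratio was higher with siRNA, by log2 differences of 0.19 in AKT Cre/NRAS and 0.27 in AKT/NRAS cells. Since probes differ in efficiency, a ratio compares samples and does not say which transcript was more abundant.

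The log2 ratio of *Cdk6* to *Cdk4* was -2.47, -2.55 and -2.57 in AKT Cre/NRAS siRNA samples and -3.03, -3.27 and -3.45 in AKT Cre/NRAS SCR samples. In AKT/NRAS cells it was -2.48, -2.59 and -2.54 with siRNA and -2.50, -2.65 and -2.54 with SCR. The AKT Cre/NRAS SCR samples thus lay below the other 9 samples, and the siRNA samples of that line overlapped the AKT/NRAS samples. Over the AKT Cre/NRAS samples in the order given, the log2 ratio of *Rpl19* to *Polr2a* rose as this ratio fell (4.72, 4.92, 5.03, 5.48, 6.36 and 6.88). The part of this in the differences that follow was not tested. The *Cdk6* to *Cdk4* ratio was 1.64-fold higher with siRNA than with SCR in AKT Cre/NRAS cells. It was 1.61-fold lower in AKT Cre/NRAS than in AKT/NRAS cells under SCR. These and every other difference of a ratio without overlap had an exact permutation p of 0.1, which is the smallest that 3 against 3 samples can give, and an adjusted p of 0.145 over the 16 (two-sided), so none could pass 0.05. In AKT/NRAS cells the siRNA difference was 0.02 (exact permutation p = 0.6), and whether the siRNA differences of a ratio differ between the lines was not tested.

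The ratio of *Ccnd3* to *Ccnd1* was lower in AKT Cre/NRAS than in AKT/NRAS cells, 1.49-fold under siRNA and 1.62-fold under SCR, and the ratio of *Ccnd2* to *Ccnd3* was 3.54-fold lower under siRNA and 3.09-fold lower under SCR, all 4 without overlap. With siRNA the *Ccnd3* to *Ccnd1* ratio was higher than with SCR by a log2 difference of 0.34 in AKT Cre/NRAS cells, without overlap (exact permutation p = 0.1), and by 0.22 in AKT/NRAS cells, with overlap (exact permutation p = 0.2). Between siRNA and SCR samples the *Ccnd2* to *Ccnd3* ratio overlapped in both lines (log2 differences -0.15 in AKT Cre/NRAS and 0.05 in AKT/NRAS cells, exact permutation p = 0.6 and 0.8).

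**Figure D4:**
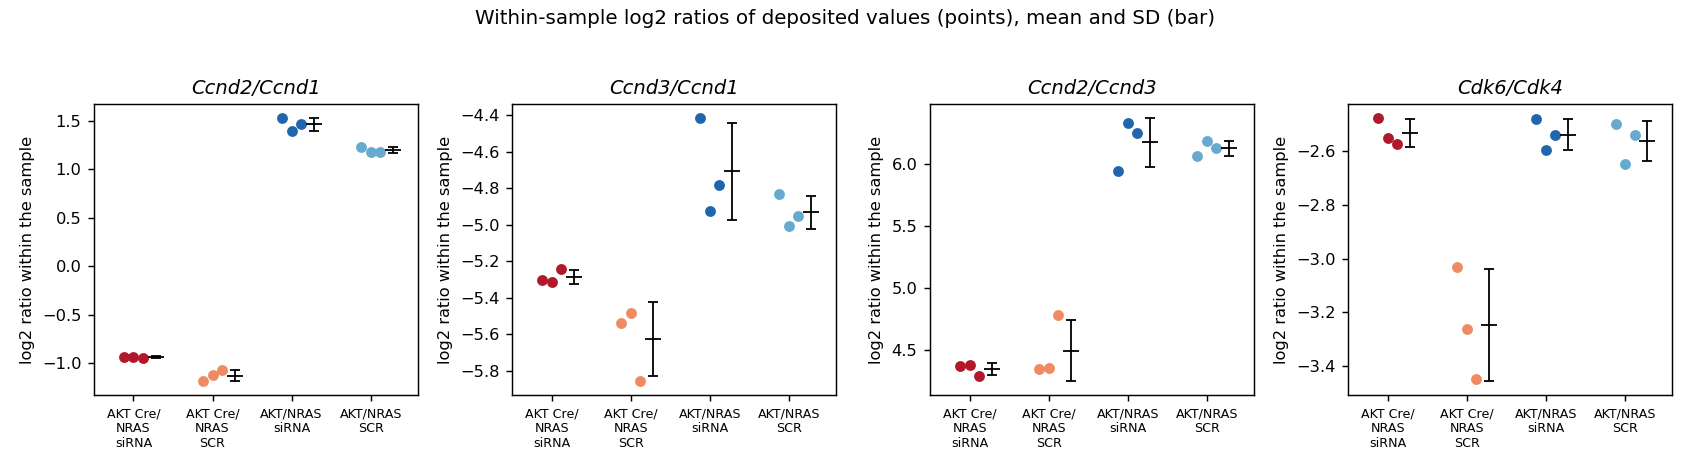
Log2 ratios of deposited values within each sample (vertical axes, each with its own range) for *Ccnd2* to *Ccnd1*, *Ccnd3* to *Ccnd1*, *Ccnd2* to *Ccnd3* and *Cdk6* to *Cdk4* in the 4 groups, with points for samples and a bar for mean and SD. The 3 AKT Cre/NRAS SCR samples have *Cdk6* to *Cdk4* ratios of -3.45 to -3.03, below the other 9 samples.

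The inhibitors that act on these kinases were compared next. *Cdkn2a*, which encodes the CDK4 and CDK6 inhibitor p16INK4A and, in another frame, p19ARF, stood at the floor in all 6 AKT Cre/NRAS samples, and it had 1591, 1956 and 1869 normalized counts in AKT/NRAS siRNA samples and 1835, 1833 and 1776 in AKT/NRAS SCR samples. It was at least 66.7-fold lower in AKT Cre/NRAS cells under siRNA and at least 67-fold lower under SCR, taken against the common floor, and the panel does not show whether the locus or its transcript was lost. Of the 7 inhibitor genes on the panel, 2 were higher and 5 lower in AKT Cre/NRAS cells under SCR, and 2 were higher and 4 lower under siRNA, beside 28.9% of all genes higher and 48% lower under SCR and 36.6% and 37.9% under siRNA. Their medians were -0.70 and -0.69 beside -0.22 and -0.00 over all genes. *Cdkn1c* (p57) was 4.48-fold lower under SCR and 4.18-fold lower under siRNA, and *Cdkn2b* (p15INK4B) 1.67-fold and 1.62-fold lower. *Cdkn1b* (p27) was higher by log2 differences of 0.70 under SCR and 0.60 under siRNA (limma adjusted p = 9.51e-05 and 1.36e-06).

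With *Dusp4* siRNA 1 of the 6 inhibitors tested rose and 0 fell in AKT Cre/NRAS cells, beside 40.6% and 5.37% of all genes, and 1 of 7 rose and 2 fell in AKT/NRAS cells, beside 5.44% and 11.9%. In AKT Cre/NRAS cells 1 more had a lower level at an unadjusted limma p under 0.05, and 1 fell with the replicate number as a block. The one that rose there was *Cdkn1a* (p21), with 4794 ± 401 normalized counts with siRNA and 3650 ± 797 with SCR (log2 change 0.41, limma adjusted p = 0.0425). That call was lost without any 1 siRNA replicate and without SCR replicate 2, and under 5 of the 8 scalings. Re-centred values gave 0 that rose and 4 that fell. *Cdkn1a* fell in AKT/NRAS cells, with 4571 ± 155 with siRNA and 5850 ± 174 with SCR (log2 change -0.36, limma adjusted p = 0.00161), *Cdkn2c* (p18INK4C) rose (0.31, limma adjusted p = 0.013), and *Cdkn1b* fell slightly (-0.14, limma adjusted p = 0.0354), a call that held in 1 of 6 fits with a replicate left out and whose sign turned with the deposited values. The *Cdkn1a* changes differed between the lines by 0.77 (limma adjusted p = 0.00809).

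**Figure D5:**
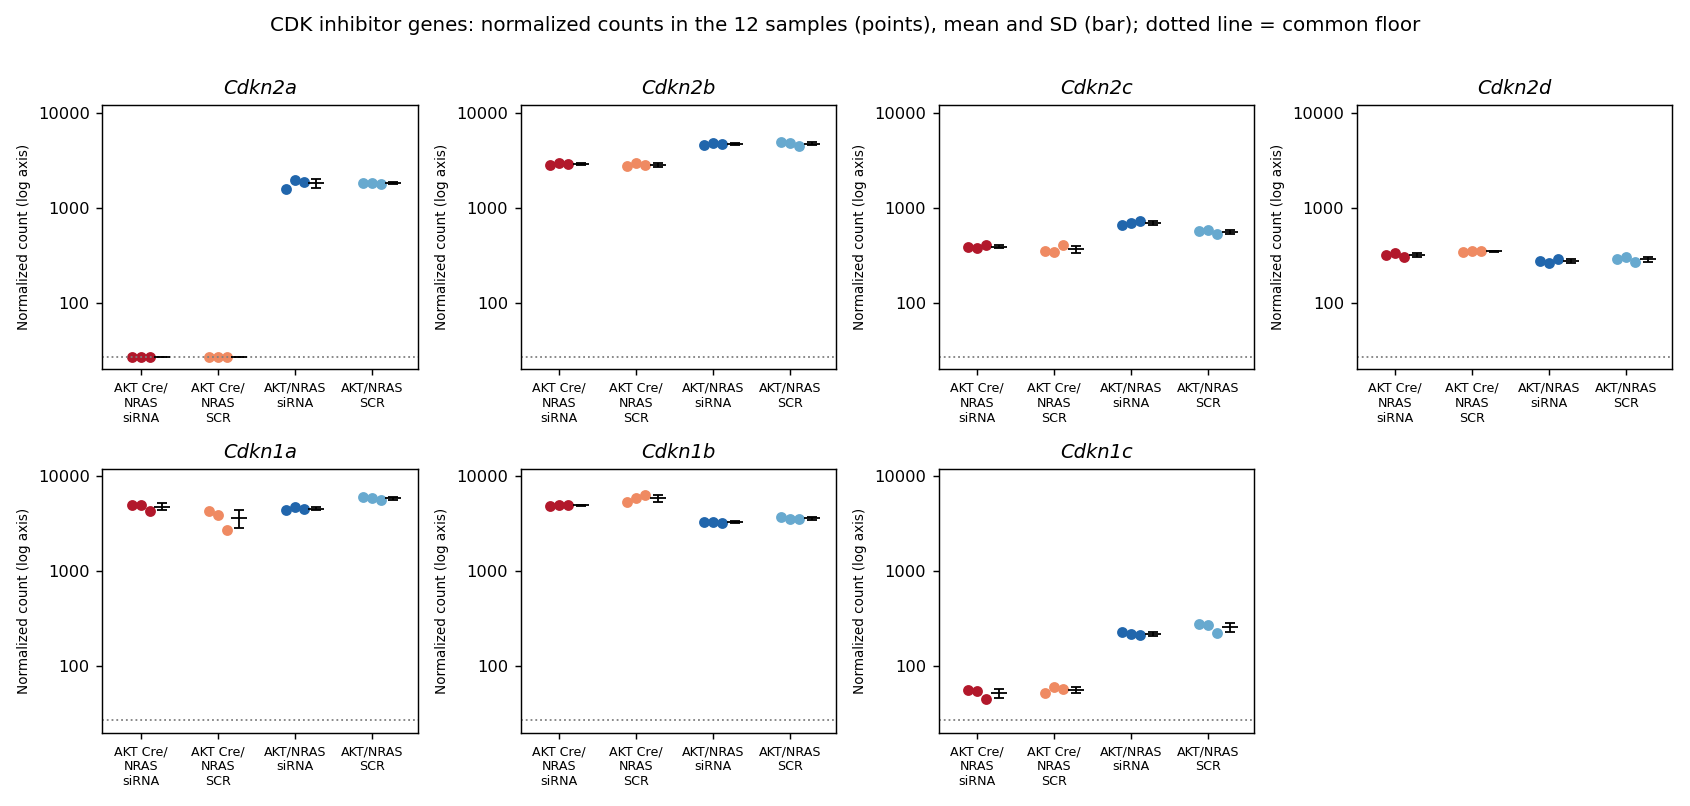
Normalized counts (vertical log axes, 1 panel per gene) of the 7 CDK inhibitor genes in the 4 groups, with points for samples, a bar for mean and SD, and a dotted line at the common floor of 27.1. *Cdkn2a* sits on the floor in all AKT Cre/NRAS samples and between 1591 and 1956 in the AKT/NRAS samples.

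Downstream of RB1, 3 of the 9 listed E2F and pocket protein genes are on the panel. Under SCR 1 of the 3 was higher and 0 lower in AKT Cre/NRAS cells, beside 28.9% and 48% of all genes. This was *E2f5*, a repressive E2F (401 ± 27.7 against 298 ± 12.8 in AKT/NRAS cells, log2 difference 0.43, limma adjusted p = 0.0026). It was not called under 3 of the 8 scalings and lay below 0 under 1 of them. With siRNA 1 of the 3 rose and 0 fell in AKT/NRAS cells, beside 5.44% and 11.9% of all genes. The gene that rose was *Tfdp1*, the DNA-binding partner of E2F (1595 ± 91.9 with siRNA and 1348 ± 25.2 with SCR, log2 change 0.24, limma adjusted p = 0.0143). In AKT Cre/NRAS cells 0 of the 3 passed, beside 40.6% of all genes that rose and 5.37% that fell. There 1 had an unadjusted limma p under 0.05, and 1 rose with the replicate number as a block.

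Of 13 genes of S phase entry, 9 to 11 were tested in a comparison. Under SCR 6 of 10 were higher and 1 lower in AKT Cre/NRAS cells, beside 28.9% and 48% of all genes. Their median was 0.47 beside -0.22 over all genes. With the 10 or 5 reference genes ranked first by geNorm, or those chosen within the comparison, 0 were called higher. *Ccna2*, the cyclin A2 gene, had 977 ± 80.2 normalized counts in AKT Cre/NRAS and 661 ± 25.8 in AKT/NRAS cells, *Cdk2*, its kinase partner, 196 ± 6.90 and 131 ± 5.25, and *Mcm7*, a subunit of the replicative helicase, 1267 ± 60.3 and 865 ± 32.1 (limma adjusted p = 0.000342, 0.000602 and 0.000152). Under siRNA 5 of 11 were higher and 2 lower, beside 36.6% and 37.9% of all genes, among them *Ccna2* (log2 difference 0.84) and *Mcm7* (0.44), both higher under all 8 scalings.

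With *Dusp4* siRNA the S phase genes did not move in 1 direction. In AKT Cre/NRAS cells 2 of 9 rose and 2 fell, beside 40.6% and 5.37% of all genes. *Ccne2*, the cyclin E2 gene, averaged 50.4 ± 2.21 with siRNA and 106 ± 34.6 with SCR (log2 change -1.02, limma adjusted p = 0.0046) and was called lower under all 8 scalings. *Cdc25a*, a phosphatase that activates CDK2 (0.44, limma adjusted p = 0.0086), and *Mcm4* (0.36, limma adjusted p = 0.0245) rose, the first under 4 and the second under 3 of the 8 scalings, and *Mcm4* was lost in 4 of 6 fits with a replicate left out. In AKT/NRAS cells 2 of 10 rose and 1 fell, beside 5.44% and 11.9% of all genes, and *Ccna2* fell to 461 ± 14.8 with siRNA, against 661 ± 25.8 with SCR (log2 change -0.52, limma adjusted p = 0.00161).

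Upstream of the cyclins, 12 of 14 listed regulators of D-type cyclin transcription and turnover were tested. In AKT Cre/NRAS cells 7 rose with siRNA and 1 fell, beside 40.6% and 5.37% of all genes (median 0.39, beside 0.23), and in AKT/NRAS cells 2 rose and 4 fell, beside 5.44% and 11.9% (median -0.07, beside -0.03). *Gsk3b*, the kinase that marks cyclin D1 for turnover, had 1244 ± 80.1 normalized counts with siRNA and 834 ± 96.2 with SCR in AKT Cre/NRAS cells (log2 change 0.58, limma adjusted p = 0.00355), and *Ets2* (0.55), *Fosl1* (0.53) and *Myc* (0.40), transcription factors that act on cyclin D promoters, also rose there (limma adjusted p = 0.0061, 0.00738 and 0.0175). With the deposited or re-centred values 0 of these regulators rose, and with quantile normalization 3 did.

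The AP-1 genes *Fos* (-0.48), *Fosl1* (-0.41) and *Jun* (-0.35) fell with siRNA in AKT/NRAS cells, as did *Ets2* (-0.26), with limma adjusted p of 0.00161 to 0.00916, and with the deposited values none of the 4 was called and *Ets2* turned its sign. The siRNA changes differed between the lines for 8 regulators upward and 1 downward, beside 40.6% and 4.76% of all genes, among them *Fosl1* (0.94), *Ets2* (0.81), *Jun* (0.70) and *Gsk3b* (0.69), while 0 upward and 2 downward were called with the deposited values. Between the lines themselves under SCR, *Etv4*, an ETS factor, averaged 475 ± 67.6 in AKT Cre/NRAS cells and 28.4 ± 2.22 in AKT/NRAS cells, just above the floor, and *Jun* averaged 152 ± 23.0 and 1599 ± 75.1 and *Mycn* 60.4 ± 15 and 496 ± 21.8. These 3 differences kept their direction and passed under all 8 scalings and in both treatments.

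The patterns of the 6 genes over the 12 samples were last set beside the 445 genes above the common floor in all samples, by Pearson's r of log2 values. These are descriptions, since the points fall in 4 groups, share libraries and scaling factors, and carry no p. *Ccnd2* was most like *Ltbp1* (0.995), *Notch1* (0.994) and *Sos1* (0.994). *Ccnd1* was most like *Men1* (0.97), a probe named only by its transcript record (0.97) and *Rin1* (0.96). *Ccnd3* was most like *Trp53* (0.92), *Xpc* (0.91) and *Cdk6* (0.91), *Cdk6* most like *Gnaq*, *Prkacb* and *Crebbp* (0.96 each), *Rb1* most like *Msh6*, *Cacnb3* and *Ets2* (0.96 each), and *Cdk4* most like *Pcna*, *Pla1a* and *Hprt* (0.91 each), the last of which is a reference gene of the scaling. Among the 6 genes themselves, *Cdk6* and *Ccnd3* had an r of 0.91 and *Ccnd2* and *Rb1* 0.83, *Ccnd1* and *Ccnd2* had -0.67, and *Cdk4* ran against *Ccnd3* (-0.78), *Cdk6* (-0.78), *Rb1* (-0.76) and *Ccnd2* (-0.72).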

How the data were processed

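NanoString counts of 770 genes were analysed in 12 samples, 3 biological replicates in each of 4 groups, and each table column was matched to a sample through the run number that its title carries. The authors processed the panel in nSolver 4.0 with Advanced Analysis 2.0, per the methods and the submitters' notes, and the deposited signal is a barcode count times a positive control factor, with values at or under 20 set to 20. Division by that factor returned whole counts for 100% of values above the floor (tolerance 0.05). The reference gene step that the methods name is not in the deposited values, so it was completed with geNorm over all samples, which kept 15 of 20 reference genes. This scaling gave more calls in the AKT Cre/NRAS siRNA comparison than the other scalings except the 10 or 5 first-ranked reference genes, which gave more, and for this reason the counts under other scalings stand beside the main ones. Counts at the floor are unknown, so no count model was fitted.

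A common floor of 27.1 was then set. Of each comparison, the genes that no sample measured above it were left out, and log2(normalized count + 1) was tested by lmFit and trended eBayes (limma 3.58.1, R 4.3.3), on the samples of the comparison alone and with no block, with Benjamini-Hochberg adjustment over all genes tested and a threshold of 0.05. Fold changes are on this scale, or ratios of it where a fold is given. Ratios within samples were compared with an exact permutation test (scipy 1.17.1, Python 3.11.15), and plots used matplotlib 3.10.9. Intervals of counts cover counting error only. The limma step was tested on simulated data with independent noise per gene, no floor and no error shared by the genes of a sample. That test therefore does not cover the choice of scaling.

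Same-numbered samples deviated together in the AKT Cre/NRAS siRNA comparison (r = 0.19, 0.10 and 0.18 over genes), although the labels name no shared batch. In the other comparisons at least 1 pair did not. Between the lines under siRNA, replicates 1 and 3 had r of 0.21 and 0.17, as high as these. Such r do not settle whether same-numbered samples are pairs, and the main tests used no block.

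The check of hepatocyte markers and part of that of other cell types are not reported here. The 6 genes and all lists were chosen with earlier results of these data known, so no list is independent evidence. Named are the 6 genes, the 3 genes most like each, and up to 4 genes of a list with the smallest p in a comparison. Alternatives were 7 other scalings, a pseudocount of 16, no filter, a mean of at least 100, Benjamini-Yekutieli adjustment as the methods name, no trend, 1 fit over all groups, the replicate block and leaving out each replicate.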

Additional observations from a re-analysis of the deposited data

Results flagged for a closer look

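The following effects of *Dusp4* siRNA differed between AKT Cre/NRAS and AKT/NRAS cells by the interaction test of limma, each as the log2 change in AKT Cre/NRAS minus that in AKT/NRAS cells. Among the 6 genes these were *Cdk6* (0.60), *Rb1* (0.53), *Ccnd1* (0.47) and *Ccnd2* (0.39), beside 45.3% of all genes tested that passed (40.6% upward and 4.76% downward). With the deposited values 0 of the 6 passed. Of the genes around them, the differences were 1.28 for *Dusp4*, 0.94 for *Fosl1*, 0.81 for *Ets2*, 0.77 for *Cdkn1a*, 0.70 for *Jun*, 0.69 for *Gsk3b*, 0.28 for *Ccna2* and -0.97 for *Ccne2*. *Ccna2* fell in AKT/NRAS cells and did not pass in AKT Cre/NRAS cells, and its difference held in 6 of 12 fits with a sample left out. That difference lay above 0 under 4 of the 7 scalings and was called under 3.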

How the results depend on the processing

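Limits were the scaling and the size of the groups. The scaling factor of a sample moves all its genes together, and each group has 3 samples. Counting error was the largest for *Ccnd3* among the 6 genes, whose lowest recovered count was 97. No alternative turned *Ccnd2* between the lines.

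In the AKT Cre/NRAS siRNA comparison the number of called genes among the 6 was 5 and became 0 with the deposited values (1 at an unadjusted limma p under 0.05), 3 re-centred, 2 with quantile normalization, 3 with reference genes chosen within the comparison, 2 with no filter, 2 with Benjamini-Yekutieli adjustment and 3 to 6 with a replicate left out. Over the panel 231 became 1, 90 (quantile), 100 (within the comparison), 56 (no filter) and 70 (Benjamini-Yekutieli), and 99 to 297 with a replicate left out, the lowest without siRNA replicate 1, with 121 without siRNA replicate 2, 118 without siRNA replicate 3 and 131 without SCR replicate 2. These counts hold calls in either direction, and *Cdk4* was called lower with siRNA under 1 of the 8 scalings. Signs turned for *Rb1* (-0.045 re-centred), *Cdk4* (0.041 and 0.31 with 10 and 5 reference genes) and *Dusp4* (0.00098 with 5).

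In the AKT/NRAS siRNA comparison 1 became 4 with the deposited values, 2 re-centred, with all 20, with 10 reference genes and with a mean of at least 100, 3 with 5 reference genes and within the comparison, 0 with no filter, with Benjamini-Yekutieli adjustment and with 1 fit over all groups (limma gave 2 of the 6 an unadjusted p under 0.05 in each of these), and 0 to 2 with a replicate left out. The counts of the 6 hold calls in either direction. Over the panel 86 became 290 with the deposited values, 45 with no filter, 10 with Benjamini-Yekutieli adjustment, 23 with 1 fit over all groups and 39 to 92 with a replicate left out. All 20 reference genes gave 34 of the panel that rose and 74 that fell, and those chosen within the comparison 30 and 70. With the deposited values signs turned for *Ccnd1* (0.24), *Cdk4* (0.28), *Cdk6* (0.31), *Rb1* (0.12), *Cdkn1b* (0.20) and *Ets2* (0.075). Re-centred and quantile values gave *Cdk4* 0.0056 and 0.0068 and *Cdk6* 0.030 and 0.055, and *Cdk6* ranged from -0.055 to 0.013 with a replicate left out.

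Between the lines under SCR the deposited values gave *Ccnd3* 0.0044, and 10 reference genes, 5 reference genes and those chosen within the comparison gave *Ccnd1* -0.088, -0.23 and -0.33 and *Cdk4* -0.12, -0.26 and -0.36, and *E2f5* was -0.092 with the last. Under siRNA 2 called genes became 4 with all 20 and with 5 reference genes. Over the panel 191 higher and 198 lower became 228 and 170 with all 20, and 204 and 168 with 5. In the interaction 4 became 0 with the deposited values (0 at an unadjusted limma p under 0.05), 1 re-centred and 2 with Benjamini-Yekutieli adjustment, and 238 over the panel became 32 and, with that adjustment, 101. *Ccnd2* turned to -0.033 (deposited) and -0.023 (re-centred), *Ccna2* to -0.15, -0.14 and -0.045 (deposited, re-centred, quantile), and *Cdk4* to 0.13 and 0.39 (10 and 5 reference genes).

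With the replicate number as a block, 5 of the 6 genes and 263 of the panel passed with siRNA in AKT Cre/NRAS cells, and no call among the 6 changed. In the other comparisons the block gave 2 called genes, with *Rb1* at -0.22 (limma adjusted p = 0.0327), and 73 of the panel in AKT/NRAS cells. It gave 397 and 404 of the panel between the lines under SCR and siRNA, and 4 called genes and 244 of the panel in the interaction. Same-numbered samples did not all correlate best with their own number there.

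Ratios changed sign with a replicate left out for *Ccnd2* to *Ccnd3* with siRNA in AKT/NRAS cells (-0.029 to 0.16) and for *Cdk6* to *Cdk4* there (-0.018 to 0.056) and between the lines under siRNA (-0.024 to 0.035). Of the 3 most alike genes, Spearman's rho shared 0 for *Ccnd1*, *Ccnd2*, *Cdk6* and *Rb1*, and the deposited values 1 for *Ccnd3*, *Cdk4* and *Rb1* and 0 for *Cdk6*. Over all results and alternatives, 2437 values kept their direction and side of the threshold or, for counts of called genes among others, only their size. Of the others, 41 newly passed, 167 no longer passed, 35 turned their sign and 262 moved in size. Counts of called genes entered as totals in either direction, so a turned split is not among the turned signs. With re-centred values 204 genes up and 27 down became 32 and 136 with siRNA in AKT Cre/NRAS cells. In the interaction 213 and 25 became 50 and 151. The tally therefore does not measure how stable the directions of panel counts were. Where no value above shows the cause of a change, the cause was not tested.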
